A study of Mus musculus with 14 samples.

Results

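A set of 10 genes of interleukin-1 production was followed in primary bone marrow-derived macrophages (pBMDMs): the cytokine genes Il1b, Il1a and Il18, the antagonist gene Il1rn, the sensor genes Nlrp3 and Aim2, the adaptor gene Pycard, the caspase genes Casp1 and Casp4, and Gsdmd. They were chosen by gene symbol and make up 10 of the 55414 genes in the count table. Of these 10, 9 were among the 12851 genes with enough counts to be tested, and Il1a was not. All pBMDMs were wildtype, came from C57BL/6N mice, were differentiated with M-CSF and spent 24 h in a supernatant or in medium before RNA was taken. The supernatants came from Pfa1 mouse embryonic fibroblasts (MEFs), a cell line in which 4-hydroxytamoxifen (4OHT, labelled Tam) deletes Gpx4 and thereby causes ferroptosis, an iron-dependent necrosis driven by lipid peroxidation. MEFs had been left without 4OHT (ctrl), treated with 4OHT (4OHT, the ferroptotic stimulus), treated with 4OHT and the ferroptosis inhibitor Ferrostatin-1 (4OHT+Fer1), or treated with Ferrostatin-1 alone (Fer1). Fresh medium that is not described as MEF supernatant formed the remaining group (medium). There were 3 samples of each supernatant and 2 of medium, 14 in all. The ctrl, 4OHT+Fer1 and Fer1 supernatants carry the label non-ferroptotic. No step that takes 4OHT or Ferrostatin-1 out of the supernatants is described in the sources used here, and no group had 4OHT in fresh medium, so effects of the compounds on the macrophages and effects of what the MEFs released cannot be told apart.

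Interleukin-1β is made as an inactive precursor whose gene is switched on by NF-kB after a macrophage senses microbes or tissue damage. A second event assembles an inflammasome, in which a sensor such as NLRP3 or AIM2 recruits the adaptor ASC (from Pycard) and caspase-1, and caspase-1 cuts the precursors of interleukin-1β and interleukin-18 and the pore-forming protein gasdermin D. Transcript levels report the first event and the stock of inflammasome parts, and say nothing of cleavage or release.

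Il1b and Nlrp3 were the members whose transcript differed between supernatants, and the 250 bases before their start sites, from RefSeq on GRCm38.p6, are shown because the results below turn on these genes. The Il1b promoter lies at chr2:129371140-129371389 on the minus strand and the Nlrp3 promoter at chr11:59541319-59541568 on the plus strand. Both are written 5′ to 3′, and capitals mark a match to an NF-kB-like motif (GGG, any 5 bases, CC).
Il1b promoter: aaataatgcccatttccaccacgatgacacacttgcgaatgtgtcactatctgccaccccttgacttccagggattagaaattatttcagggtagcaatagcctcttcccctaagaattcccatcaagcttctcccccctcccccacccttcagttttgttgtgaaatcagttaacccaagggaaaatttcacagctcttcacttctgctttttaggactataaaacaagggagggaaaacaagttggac
Nlrp3 promoter: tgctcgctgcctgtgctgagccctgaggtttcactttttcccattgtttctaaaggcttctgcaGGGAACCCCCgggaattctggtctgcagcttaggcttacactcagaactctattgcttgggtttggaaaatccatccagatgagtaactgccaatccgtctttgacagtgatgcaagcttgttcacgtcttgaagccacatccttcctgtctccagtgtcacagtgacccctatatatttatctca
The Nlrp3 window held GGGAACCCCC between 186 and 177 bases before the start, which matches the motif on both strands, and the Il1b window held no match. A second RefSeq start of Nlrp3, with its window at chr11:59542436-59542685, held none either. The motif is short, and 45.8% of the 32851 promoters of this length held it. Matches to TGANTCA (AP-1-like, in 6.75% of promoters) and an ISRE-like motif (TTTC, any 2 bases, TTTC, in 2.98%), sought on both strands, were absent from both windows. RefSeq promoters were matched for 9 of the 10 members. The match is a description of letters and was not tested for binding.

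Libraries were made with QuantSeq, which reads the 3′ end of transcripts. Total estimated counts per sample lay between 7823051 and 11052352, and levels are given as CPM (counts scaled to a common library size) with edgeR's TMM factors. At this depth 3 counts, taken as the smallest amount told from none, stood for 0.272 to 0.381 CPM. All 10 macrophage markers looked for were tested, with summed levels of 19595 to 44583 CPM per sample. Of the 12 neutrophil markers, Ly6g and Elane had no count in any sample, and the summed level was 43.6 to 162 CPM. The 10 lymphocyte markers summed to 0.694 to 3.26 CPM, the 8 dendritic cell markers to 0 to 3.56 CPM, the 5 monocyte markers to 23.4 to 406 CPM and the 12 fibroblast markers to 17.0 to 125 CPM. Differences between groups were tested by quasi-likelihood in edgeR, with p-values adjusted after Benjamini and Hochberg over all 12851 genes and the replicate number as a block, and are given as log2 fold changes with 95% confidence intervals. A gene was called when its adjusted p was under 0.05 and its log2 fold change was above 1 or below -1. The study's methods have the mouse as a batch term, and the replicate number was taken as the mouse, which the labels do not state. If it is not, p-values measure only the spread between these samples.

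Of the 9 tested members, Il1b rose and Nlrp3 fell in 4OHT against ctrl, 2 called members where 1.11% of all tested genes were called. Il1b (chr2:129364570-129371139, minus strand), the gene of the interleukin-1β precursor, had 2.63, 2.92 and 17.1 CPM in ctrl replicates 1, 2 and 3. In 4OHT it had 37.4, 34.1 and 50.2 CPM in the same order. The 4OHT samples stood above the ctrl samples without overlap, and ctrl replicate 3 stood apart from the other ctrl samples. The log2 fold change was 3.00 (95% interval 2.14 to 3.87, adjusted p = 0.00737), an 8.03-fold higher level. The same elevation of replicate 3 was seen in 4OHT+Fer1, where Il1b had 2.30, 3.82 and 17.7 CPM, and in Fer1, where it had 2.28, 3.13 and 10.4 CPM. Thus the third replicate was the highest of its group in all 4 supernatants, and the 9 non-ferroptotic samples (2.28 to 17.7 CPM, median 3.13) remained below the lowest 4OHT sample. Within replicate numbers the log2 difference of 4OHT from ctrl was 3.72, 3.46 and 1.54, smallest in replicate 3. In bulk RNA, fewer cells of a type and less RNA per cell cannot be told apart.

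**Figure D1:**
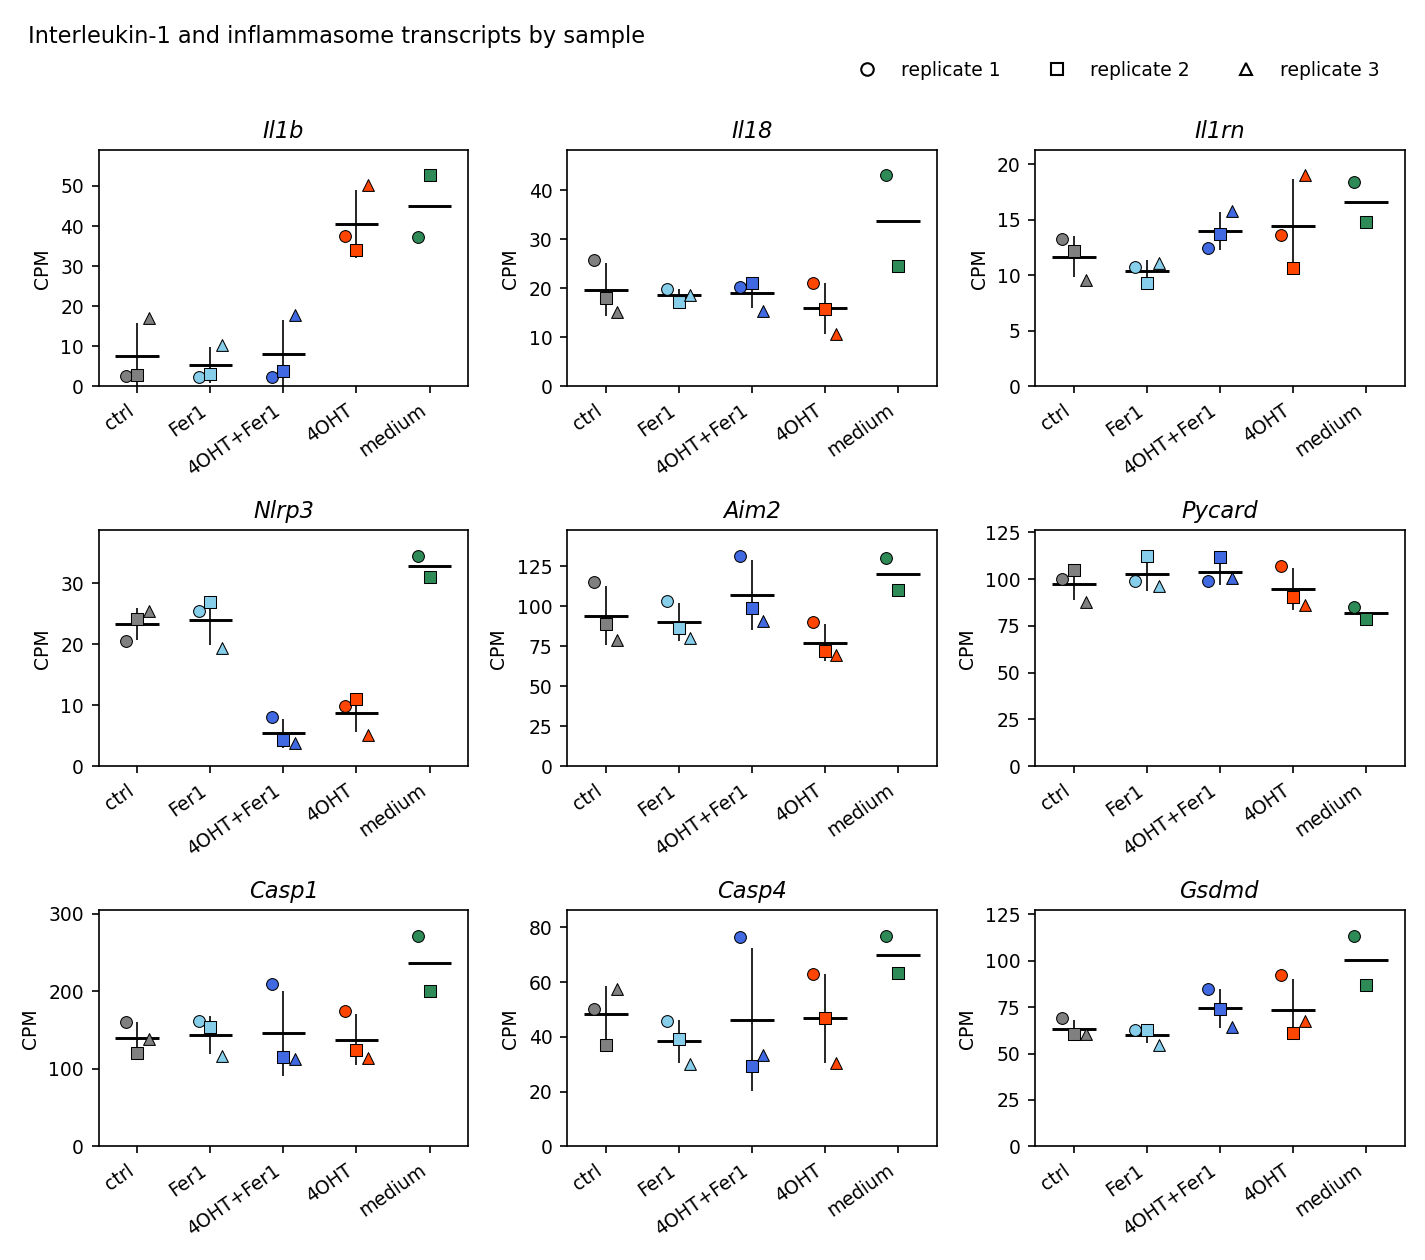
CPM (linear axis from 0) of the 9 tested members in each of the 14 samples, with one panel per gene, points marked by replicate number, a bar at the group mean and the SD where n = 3. Il1b is at 34.1 to 50.2 CPM in 4OHT and at 2.28 to 17.7 CPM in the non-ferroptotic supernatants, and Nlrp3 is at 3.79 to 11.0 CPM in both groups with 4OHT and at 19.4 to 27.0 CPM in both supernatant groups without it.

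Il1b was also higher in 4OHT than in 4OHT+Fer1, by 2.92 on the log2 scale (95% interval 2.05 to 3.78, adjusted p = 0.00753, edgeR). It was the only called member of this comparison, in which 1.03% of genes were called. The within-replicate log2 differences were 3.90, 3.09 and 1.49. Against the mean of the 3 non-ferroptotic groups the log2 fold change was 3.10 (95% interval 2.48 to 3.72, adjusted p = 0.000221, edgeR), and Il1b was again the only member called, beside 1.7% of genes. These comparisons share the 4OHT samples. Leaving out replicate 1 or 2 ended the call against 4OHT+Fer1, and leaving out replicate 2 the call against the mean. Without the replicate block Il1b kept its direction and missed the threshold in all 3, with log2 fold changes of 2.43 (adjusted p = 0.396), 2.35 (adjusted p = 0.390) and 2.58 (adjusted p = 0.0526, all edgeR). It also missed the threshold in 4OHT against ctrl without replicate 1 (2.54, adjusted p = 0.181) or 2 (2.79, adjusted p = 0.331), and passed without replicate 3 (3.69, adjusted p = 0.000688, edgeR). With only the 4OHT and ctrl samples in the model the value was 2.91 and did not pass (adjusted p = 0.243, edgeR), and 0 of all genes were called in that fit, with 835 at an unadjusted p under 0.05, beside 282 called by DESeq2 over all samples.

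Whether the response to 4OHT differed with Ferrostatin-1 present was tested as an interaction, the log2 fold change of 4OHT against ctrl minus that of 4OHT+Fer1 against Fer1. No member was called, beside 0.0311% of genes, while 2 of the 9 members had an unadjusted p under 0.05, beside 6.2% of genes, and DESeq2 called 1, beside 0.331% of the 22388 genes in its fit. For Il1b the interaction was 2.55 (95% interval 1.32 to 3.79), which did not pass in edgeR (adjusted p = 0.251) and passed in DESeq2 (2.63, adjusted p = 0.00257) and, in edgeR, without replicate 3 (3.54, adjusted p = 0.0177). For Aim2, the other member with an unadjusted p under 0.05, it was -0.52 (95% interval -0.88 to -0.15, adjusted p = 0.519, edgeR). For Nlrp3 it was 0.68 (95% interval -0.15 to 1.50, adjusted p = 0.934, edgeR).

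The other cytokine genes and the antagonist did not follow Il1b. Il1a (chr2:129299610-129309972, minus strand), the gene of interleukin-1α and the neighbour of Il1b, had 4 counts over all 14 samples, 3 of them in medium replicate 2 (0.334 CPM). Its transcript was not detectable in the other samples beyond 1 count in Fer1 replicate 3, and no difference could be tested. Il18 (chr9:50554827-50581840, plus strand), the gene of the interleukin-18 precursor, had 25.8, 18.1 and 15.2 CPM in ctrl and 21.2, 15.9 and 10.6 CPM in 4OHT. In Fer1 it had 19.9, 17.2 and 18.6 CPM, and in 4OHT+Fer1 20.3, 21.1 and 15.5 CPM. The 4 supernatant groups overlapped, and the difference of 4OHT from ctrl was -0.32 on the log2 scale (adjusted p = 0.674, edgeR). Il1rn (chr2:24336853-24351494, plus strand), which encodes the receptor antagonist of interleukin-1, had 13.3, 12.2 and 9.61 CPM in ctrl and 13.6, 10.6 and 19.0 CPM in 4OHT. It had 10.7, 9.28 and 11.1 CPM in Fer1 and 12.4, 13.7 and 15.8 CPM in 4OHT+Fer1. Here too ctrl and 4OHT overlapped, with a log2 difference of 0.27 (adjusted p = 0.773, edgeR).

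Nlrp3 (chr11:59541568-59566956, plus strand), the gene of the sensor that responds to many forms of membrane and ion disturbance, went the other way from Il1b. It had 20.5, 24.1 and 25.5 CPM in ctrl and 9.90, 11.0 and 5.19 CPM in 4OHT. The groups did not overlap, and the log2 fold change was -1.48 (95% interval -2.06 to -0.90, adjusted p = 0.0212, edgeR), a 2.79-fold lower level. Unlike Il1b, Nlrp3 was also low with Ferrostatin-1 present, at 8.16, 4.35 and 3.79 CPM in 4OHT+Fer1, against 25.4, 27.0 and 19.4 CPM in Fer1. Thus 6 samples from MEFs given 4OHT spanned 3.79 to 11.0 CPM and the 6 from MEFs not given it 19.4 to 27.0 CPM. Nlrp3 was lower in 4OHT+Fer1 than in ctrl by a log2 fold change of -2.16 (95% interval -2.77 to -1.55, adjusted p = 0.0199, edgeR). It was the only called member, in a comparison where 4 of 12851 genes (0.0311%) were called. Against Fer1 the value was also -2.16 (95% interval -2.76 to -1.55, adjusted p = 0.0194, edgeR), again the only called member, beside 0.0233% of genes. Il1b differed by 0.09 (95% interval -0.78 to 0.95, adjusted p = 0.980) and 0.45 (95% interval -0.44 to 1.35, adjusted p = 1, edgeR) in these comparisons, which share the 4OHT+Fer1 samples.

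**Figure D2:**
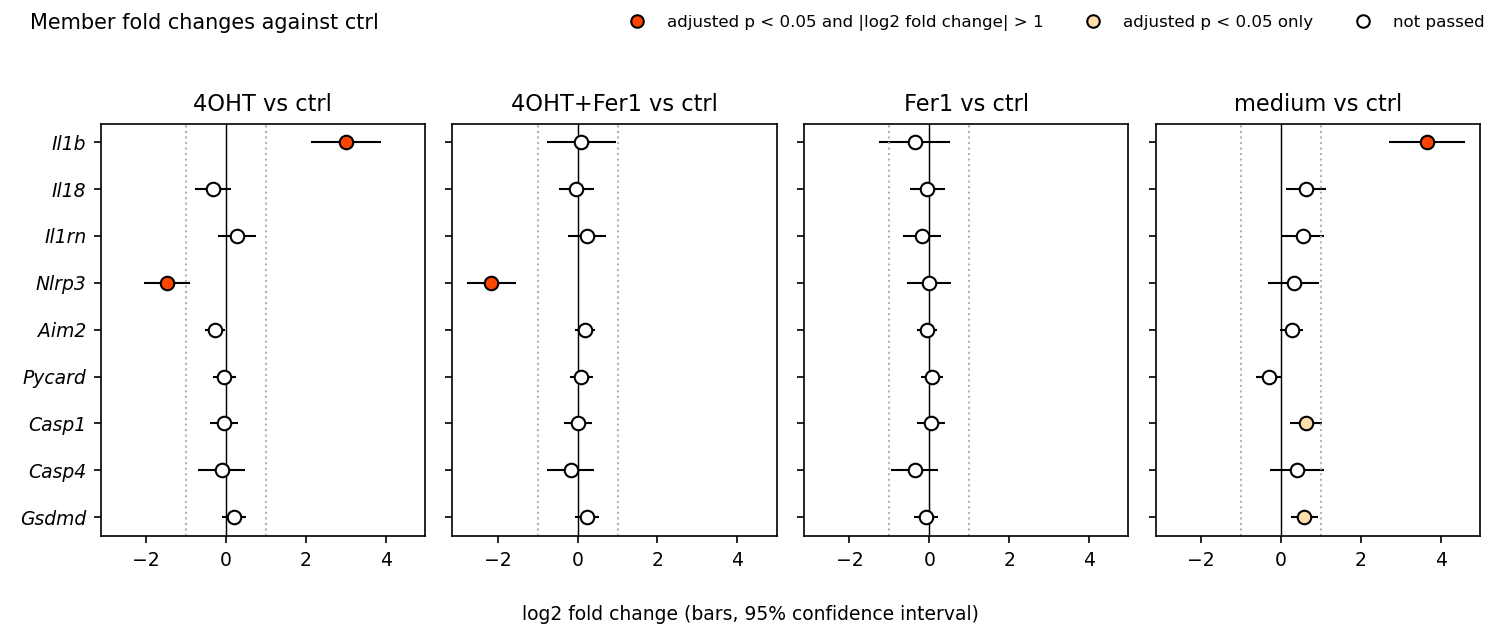
Log2 fold changes against ctrl (points) with 95% confidence intervals (bars) for the 9 tested members in 4 panels, 4OHT, 4OHT+Fer1, Fer1 and medium, where dark points passed both thresholds and light filled points the adjusted p alone. Il1b is at 3.00 in 4OHT and 3.66 in medium, and Nlrp3 is at -1.48 in 4OHT and -2.16 in 4OHT+Fer1.

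Between both supernatants of 4OHT-treated MEFs, Nlrp3 was at a log2 fold change of 0.68 in 4OHT over 4OHT+Fer1 (95% interval 0.07 to 1.29), which did not pass after adjustment (adjusted p = 0.353, edgeR). The within-replicate log2 differences from ctrl were -1.03, -1.12 and -2.25 in 4OHT and -1.30, -2.41 and -2.68 in 4OHT+Fer1, so every replicate had the same sign. In Fer1 against ctrl no member was called and none had an unadjusted p under 0.05 in edgeR, and DESeq2 called none. Over all genes 0% were called by edgeR, with 146 at an unadjusted p under 0.05, and DESeq2 called 8. Nlrp3 differed there by less than 0.01 on the log2 scale, with a 95% interval from -0.55 to 0.54. Without the replicate block Nlrp3 missed the threshold, with -1.42 in 4OHT against ctrl (adjusted p = 0.104), -2.10 in 4OHT+Fer1 against ctrl (adjusted p = 0.0694) and -2.14 in 4OHT+Fer1 against Fer1 (adjusted p = 0.0585, edgeR). Leaving out any 1 replicate number gave -1.11 to -1.68, -1.87 to -2.64 and -1.97 to -2.51 in these comparisons, and none of those fits passed. With only the groups compared in the model it did not pass either, at -1.47 (adjusted p = 0.280), -2.18 (adjusted p = 0.998) and -2.20 (adjusted p = 0.342, edgeR). DESeq2 over all samples gave -1.49 (adjusted p = 5.64e-05), -2.17 (adjusted p = 1.90e-09) and -2.17 (adjusted p = 2.58e-09).

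**Figure D3:**
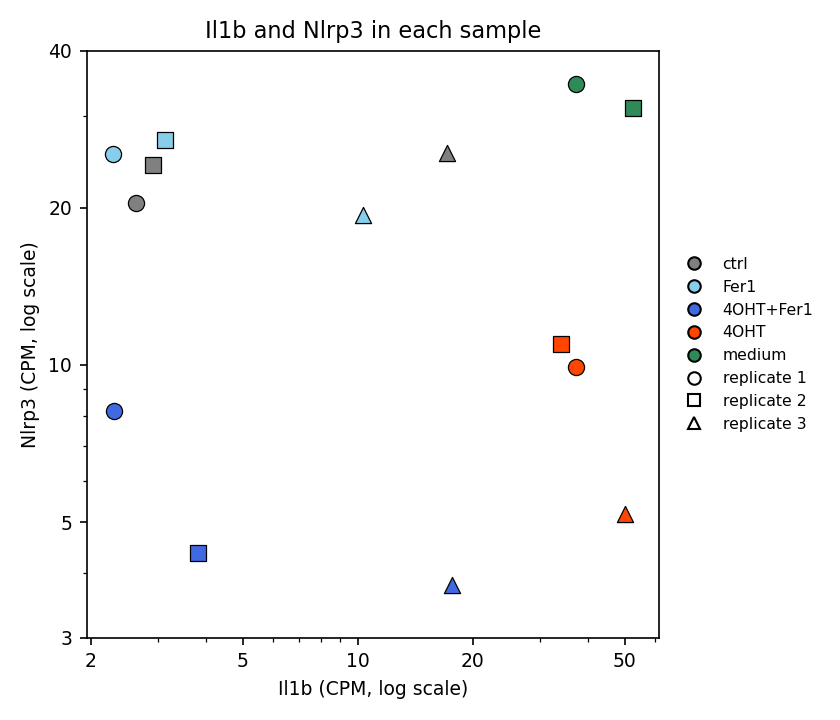
Il1b (horizontal, CPM, log axis) against Nlrp3 (vertical, CPM, log axis), one point per sample, coloured by group. The 4OHT samples have Il1b of 34.1 to 50.2 CPM and Nlrp3 of 5.19 to 11.0 CPM, the medium samples are high in both, with Nlrp3 at 31.0 and 34.5 CPM, and the 4OHT+Fer1 samples have Nlrp3 of 3.79 to 8.16 CPM with Il1b no higher than 17.7 CPM.

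The remaining sensor, Aim2 (chr1:173350879-173466040, plus strand), detects DNA in the cytosol. It had 115, 88.7 and 79.1 CPM in ctrl, 90.5, 72.0 and 69.3 CPM in 4OHT, 132, 98.7 and 90.7 CPM in 4OHT+Fer1 and 103, 86.8 and 80.5 CPM in Fer1. In each replicate number 4OHT was the lowest of the 4 supernatants. The 4OHT samples overlapped ctrl and Fer1 and lay narrowly below 4OHT+Fer1 (highest 90.5 CPM in 4OHT, lowest 90.7 CPM in 4OHT+Fer1). The log2 difference was -0.28 against ctrl (95% interval -0.54 to -0.02, adjusted p = 0.400) and -0.46 against 4OHT+Fer1 (95% interval -0.72 to -0.21, adjusted p = 0.0937, edgeR), and neither passed.

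The adaptor and effector genes showed no called difference between any of the supernatants compared. Pycard (chr7:127989708-127993867, minus strand), which encodes ASC, had 100.2, 105 and 87.9 CPM in ctrl and 107, 90.6 and 86.2 CPM in 4OHT. The log2 difference of 4OHT from ctrl was -0.04 (95% interval -0.33 to 0.24). Casp1 (chr9:5298517-5307265, plus strand), the gene of the caspase that cuts the interleukin-1β precursor, had 161, 120 and 139 CPM in ctrl and 175, 125 and 114 CPM in 4OHT. Its log2 difference was -0.05 (95% interval -0.40 to 0.31). Casp4 (chr9:5308828-5336783, plus strand), the neighbour of Casp1 and the gene of the caspase that senses cytosolic lipopolysaccharide, had 50.1, 37.2 and 57.4 CPM in ctrl and 63.1, 46.8 and 30.5 CPM in 4OHT. The log2 difference was -0.11 (95% interval -0.69 to 0.48), the widest of these 4 intervals. Gsdmd (chr15:75862327-75867408, plus strand), the gene of the pore-forming gasdermin D, had 69.1, 60.6 and 60.3 CPM in ctrl and 92.4, 61.3 and 67.3 CPM in 4OHT, with a log2 difference of 0.20 (95% interval -0.10 to 0.51). The adjusted p of these 4 genes lay between 0.700 and 0.957 (edgeR). In 4OHT+Fer1 and Fer1 the levels overlapped those of ctrl for all 4, at 96.0 to 113 CPM for Pycard, 113 to 209 CPM for Casp1, 29.3 to 76.4 CPM for Casp4 and 54.7 to 85.0 CPM for Gsdmd. Gsdmd lay higher in 4OHT+Fer1 (64.2 to 85.0 CPM) than in Fer1 (54.7 to 62.9 CPM), without overlap. That log2 difference was 0.30 (95% interval -0.01 to 0.60) and was not called.

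In fresh medium more members were high. Il1b had 37.3 and 52.6 CPM in medium replicates 1 and 2, as in the ferroptotic supernatant and above every non-ferroptotic sample. Against ctrl the log2 fold change was 3.66 (95% interval 2.71 to 4.61, adjusted p = 0.000263, edgeR), a 12.6-fold higher level, and Il1b was the only member called (7.79% of genes). The call was lost without the replicate block (2.58, adjusted p = 0.119) and without replicate 2 (3.36, adjusted p = 0.0697, edgeR), where medium kept 1 sample. In 3 of the 9 members the adjusted p alone was under 0.05 (10.9% of genes), since Casp1 (0.64, adjusted p = 0.0459) and Gsdmd (0.59, adjusted p = 0.0325, edgeR) passed it with smaller differences. Casp1 had 272 and 201 CPM in medium and Gsdmd 114 and 87.2 CPM, for both genes the highest samples of their replicate numbers. Of the members that did not pass against ctrl, Il18 had 43.1 and 24.6 CPM, Il1rn 18.4 and 14.8 CPM, Nlrp3 34.5 and 31.0 CPM, Casp4 77.0 and 63.2 CPM and Aim2 130 and 110 CPM. Pycard, at 85.3 and 78.7 CPM, was below every supernatant sample (lowest 86.2 CPM).

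Compared with the mean of all 3 non-ferroptotic groups, 2 members were called in medium (8.89% of genes), Il1b at 3.75 (adjusted p = 2.56e-05) and Nlrp3 at 1.04 (adjusted p = 0.0122, edgeR). By adjusted p alone 5 of the 9 passed, all higher in medium (14.7% of genes passed, 7.85% higher), with Casp1 at 0.62 (adjusted p = 0.0174), Gsdmd at 0.54 (adjusted p = 0.0165) and Il18 at 0.66 (adjusted p = 0.0393, edgeR). The median log2 difference of the 9 members was 0.58, beside 0.02 over all genes tested. The mean contains 4OHT+Fer1, in which Nlrp3 was low, the Nlrp3 call was lost without replicate 1 or 2, and against ctrl alone Nlrp3 differed by 0.32 (95% interval -0.32 to 0.96, adjusted p = 0.569, edgeR).

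The ferroptotic supernatant and fresh medium shared a high Il1b and differed in Nlrp3. In 4OHT against medium Nlrp3 was called lower, at -1.80 (95% interval -2.44 to -1.16, adjusted p = 0.00572, edgeR), 1 of 9 members where 3.07% of genes were called. Without replicate 1 (-1.77, adjusted p = 0.209) or 2 (-1.98, adjusted p = 0.279, edgeR) it did not pass. By adjusted p alone Il18 (-0.95, adjusted p = 0.0370) and Aim2 (-0.55, adjusted p = 0.0385, edgeR) were lower as well, 3 members where 4.26% of genes passed. Il1b differed by -0.66 (95% interval -1.50 to 0.19, adjusted p = 0.486, edgeR), and its within-replicate log2 differences were 0.00 and -0.62. These data do not separate these groups in Il1b, and the interval leaves room for a lower level in 4OHT. Ordered by mean, Il1b was at 5.25 ± 4.44 in Fer1, 7.55 ± 8.28 in ctrl, 7.95 ± 8.49 in 4OHT+Fer1, 40.6 ± 8.53 in 4OHT (CPM, SD, n = 3) and 45.0 CPM in medium, where the step between 4OHT+Fer1 and 4OHT was the one that passed. For Nlrp3 the order was 5.43 ± 2.38 in 4OHT+Fer1, 8.69 ± 3.08 in 4OHT, 23.4 ± 2.61 in ctrl, 23.9 ± 4.02 in Fer1 (CPM, SD, n = 3) and 32.8 CPM in medium, and the step between 4OHT and ctrl passed. Fer1 and medium were not compared directly.

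Few genes around the members passed the test between 4OHT and the other supernatants. In 4OHT against ctrl none of 6 tested genes of other interleukin-1 family ligands, receptors and decoys was called, none of 11 genes of interleukin-1 receptor signalling, none of 26 other inflammasome and cell death genes and none of 20 interferon-induced genes (edgeR). Unadjusted p-values under 0.05 were held by Il1rl1 among the first, Tab1 among the second, Mefv and Gbp2 among the third and Irf1 and Bst2 among the last, and DESeq2 called none of these genes. Over all genes 10.8% had such a p. Of 19 tested NF-kB-induced genes none was called by edgeR or DESeq2 and 5 had an unadjusted p under 0.05. Nfkb2, an NF-kB subunit gene, was at 0.75 with an adjusted p of 0.0310 (edgeR). The median log2 difference of that list was 0.29, beside 0.01 over all genes. Against the mean of the non-ferroptotic groups, 3 of the 19 passed by adjusted p alone and were higher in 4OHT, namely Nfkb2 (0.67, adjusted p = 0.0082), the NF-kB subunit gene Relb (0.71, adjusted p = 0.0185) and Marcksl1 (0.69, adjusted p = 0.0164, edgeR). The chemokine gene Cxcl2 was at 0.51 against ctrl (adjusted p = 0.561) and Tnf at 0.44 (adjusted p = 0.853, edgeR), and Tnf changed sign without replicate 3. Il6 had 1 count in all samples. In 4OHT against 4OHT+Fer1 no gene of these 5 lists was called by edgeR or DESeq2, and an unadjusted p under 0.05 was held by 8 of the 20 interferon-induced genes and 8 of the 19 NF-kB-induced genes, beside 11.8% of all genes. The same p was held there by 2 of 6, 3 of 11 and 2 of 26 genes of the other lists. Of the 8 interferon-induced genes Isg15 (-0.68), Oas1a, Irf7, Stat2, Ifi44, Zbp1 and Bst2 had values below 0 and Irf1 a value above 0 (0.46), with a list median of -0.43. Of the 8 NF-kB-induced genes Ccl3 and Acod1 had values below 0 and Cxcl2 (0.95), Nfkbia, Nfkb2, Relb (0.79), Sod2 and Marcksl1 values above 0, with a list median of 0.31.

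**Figure D4:**
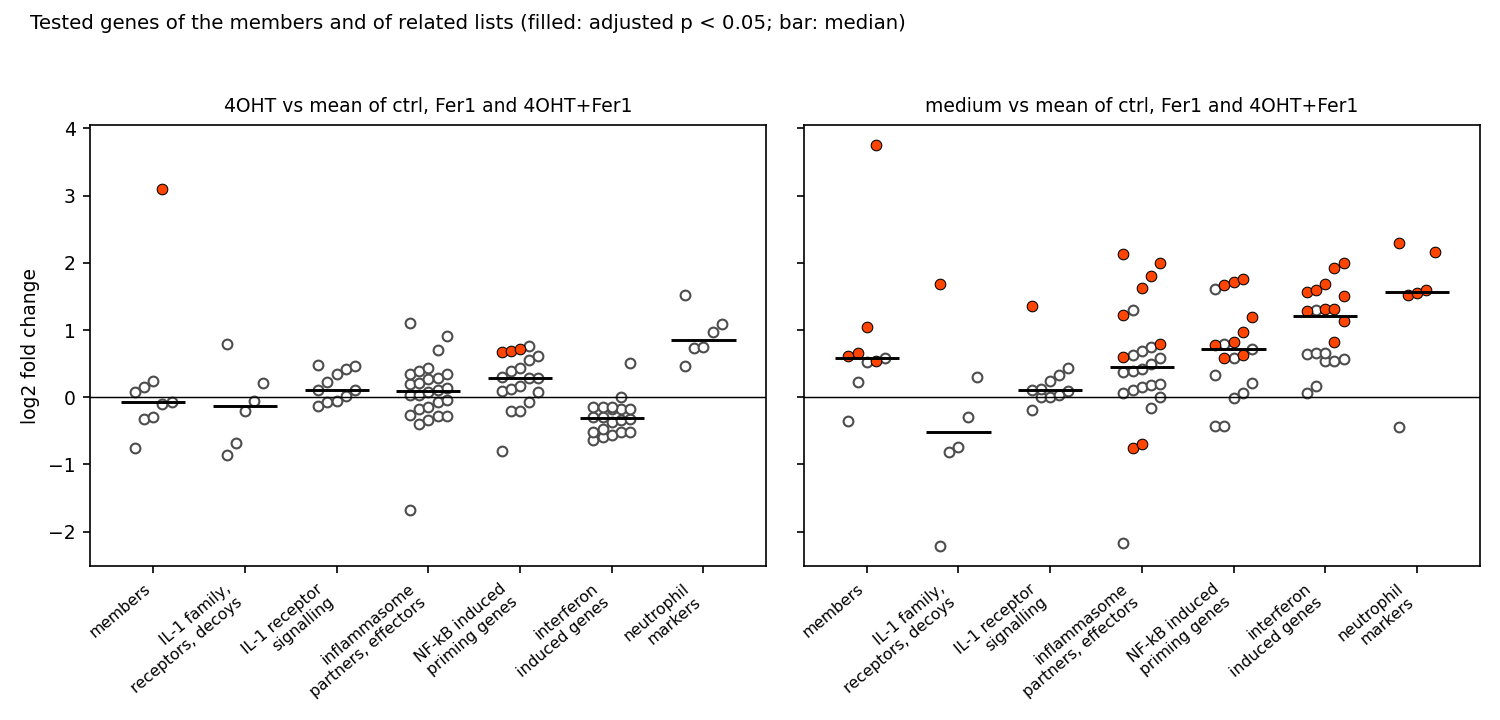
Log2 differences of the members and of the tested genes of 6 lists (points) from the mean of the 3 non-ferroptotic groups, for 4OHT in one panel and medium in the other, with filled points where the adjusted p was under 0.05 and a bar at each list's median. The interferon-induced genes have a median of -0.31 in 4OHT and 1.20 in medium, and the members a median of -0.06 and 0.58.

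In medium more genes of these lists were called, as were more of all genes. Against the mean of the non-ferroptotic groups, where 8.89% of all genes were called in medium and 1.7% in 4OHT, 10 of 20 interferon-induced genes were called higher and none lower, with Rsad2 at 2.00, Mx1 at 1.92 and Irf7 at 1.32, and the list's median was 1.20. Among the 26 inflammasome and cell death genes 5 were called, all higher: Gbp2 (2.14), Gbp5 (2.00) and Gbp3 (1.62), genes of guanylate-binding proteins that open bacterial vacuoles, Mefv (1.81), the gene of the sensor pyrin, and Ifi204 (1.22), a relative of Aim2. Of the 19 NF-kB-induced genes 4 were called higher and none lower, Cd40 (1.76), Tnf (1.72), Cxcl2 (1.67) and Nfkbiz (1.19). Il18bp, which encodes a secreted decoy that binds interleukin-18, was called at 1.69 (1 of 6), and Irak2, a kinase gene of the interleukin-1 receptor pathway, at 1.35 (1 of 11), a share near that of all genes. In 4OHT against medium, where 3.07% of all genes were called, 11 of the 20 interferon-induced genes were called lower and none higher, with a list median of -1.43. Also called lower were Il18bp (-1.48, 1 of 6) and Irak2 (-1.01, 1 of 11). The same held for Gbp2 (-1.70), Gbp3 (-1.66) and Ifi204 (-1.49), 3 of 26, and for Cd40 (-1.83) and Acod1 (-1.59), 2 of 19. Of 73 such calls in the lists over 6 comparisons, 52 were lost without the replicate block and 60, 67 and 5 without replicate 1, 2 and 3, and none changed direction.

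Some cell type markers differed in the medium and 4OHT groups. Of 6 tested neutrophil markers 5 were called higher by edgeR in medium than in the mean of the non-ferroptotic groups (8.89% of genes). These were S100a8 at 1.52, S100a9 at 1.54, Csf3r at 1.60, Camp at 2.30 and Ngp at 2.16, and DESeq2 called 4 of them, not Camp. In medium against ctrl edgeR called 2 (7.79% of genes), S100a8 and Ngp, and DESeq2 called 4. In 4OHT against ctrl none was called by edgeR or DESeq2, the median was 0.75 and 2 had an unadjusted p under 0.05. In 4OHT against 4OHT+Fer1 all 6 had values above 0, with a median of 1.17, and 4 had an unadjusted p under 0.05 (11.8% of genes). None was called by edgeR, and DESeq2 called Mmp8, the gene of a neutrophil collagenase, which was at 1.74 (adjusted p = 0.144, edgeR). Against the mean 4 of the 6 had such a p (13.8% of genes), and DESeq2 again called Mmp8, which was at 1.52 (adjusted p = 0.0549, edgeR), and the lymphocyte marker Cd4, which was at 1.53 (adjusted p = 0.0631, edgeR). In medium Mmp8 was at -0.81 against ctrl (adjusted p = 0.449, edgeR). The summed level of the 12 neutrophil markers was 122 and 126 CPM in medium, 62.6 to 162 CPM in 4OHT, 54.1 to 139 CPM in ctrl, 52.3 to 76.2 CPM in Fer1 and 43.6 to 77.7 CPM in 4OHT+Fer1. Neutrophils transcribe Il1b, and the part of these transcripts in the Il1b differences was not tested. The 10 macrophage markers summed to 28844 to 44583 CPM in 4OHT and 19595 to 28496 CPM in ctrl, without overlap. The 10 lymphocyte markers summed to 2.00 to 3.26 CPM in 4OHT and 0.804 to 1.11 CPM in ctrl, also without overlap. Of these 10, 6 had no count in any sample and only Cd4 had enough counts to be tested. The part of both lists in the differences of the members was not tested. The 5 monocyte markers summed to 363 and 379 CPM in medium and to 23.4 to 290 CPM in 4OHT. In ctrl they summed to 164 to 320 CPM, in Fer1 to 112 to 325 CPM and in 4OHT+Fer1 to 75.4 to 406 CPM. Of these 5, edgeR called 1 in medium against the mean of the non-ferroptotic groups (8.89% of genes), and DESeq2 called none. In 4OHT against that mean neither called any, and 2 had an unadjusted p under 0.05 (13.8% of genes). The 12 fibroblast markers summed to 36.7 and 109 CPM in medium, which is not described as MEF supernatant, and to 17.0 to 55.0 CPM in 4OHT. In ctrl they summed to 20.2 to 54.4 CPM, in Fer1 to 21.5 to 125 CPM and in 4OHT+Fer1 to 17.6 to 98.2 CPM. Of the 5 tested fibroblast markers 1 was called in 4OHT against 4OHT+Fer1 (1.03% of genes). In 4OHT against medium (3.07%) and in medium against ctrl (7.79%) 2 were called. The collagen gene Col1a1 was lower in 4OHT than in 4OHT+Fer1 (-1.14, adjusted p = 0.0456) and medium (-1.53, adjusted p = 0.00865), and higher in medium than in ctrl (1.17, adjusted p = 0.0159, edgeR). Col1a2 was lower in 4OHT than in medium (-1.14, adjusted p = 0.0380) and higher in medium than in ctrl (1.22, adjusted p = 0.0141, edgeR). Not called were Col1a2 in 4OHT against 4OHT+Fer1 (-0.07) and Col3a1 in medium against ctrl (-0.74). The 3 calls of Col1a1 were lost without the replicate block and without replicate 1 or 2, and its call against 4OHT+Fer1 also without replicate 3.

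The genes whose pattern lay nearest to Il1b over the 14 samples were Marco, Cd74, H2-Ab1, Adam19 and Spic, by the root mean square difference of gene-centred log2 CPM (0.48, 0.65, 0.66, 0.70 and 0.72, beside 1.71 for the spread of Il1b itself). Marco, a scavenger receptor gene, had a mean of 1.04 CPM in ctrl, 8.29 CPM in 4OHT and 10.1 CPM in medium, and log2 fold changes against ctrl of 3.28 in 4OHT (adjusted p = 0.0157) and 4.23 in medium (adjusted p = 0.000846, edgeR). Cd74 and H2-Ab1, genes of antigen presentation by MHC class II, were 1.86 (adjusted p = 0.00283) and 1.79 (adjusted p = 0.0155, edgeR) higher in 4OHT than in ctrl on the log2 scale. These 3 differences between 4OHT and ctrl, and that of Marco between medium and ctrl, did not pass without the replicate block. Adam19 and Spic were not called in 4OHT against ctrl, at 2.52 (adjusted p = 0.129) and 1.76 (adjusted p = 0.168, edgeR). Adam19 was low, with means of 0.539 CPM in ctrl and 2.36 CPM in 4OHT. Nearest to Nlrp3 were Creb5, Vegfa, Bcl2a1b, Ctla2b and Plau (0.31, 0.57, 0.58, 0.63 and 0.65, beside 1.05 for Nlrp3 itself). Vegfa, a growth factor gene for blood vessels, differed from ctrl by -2.03 in 4OHT (adjusted p = 0.00406) and by -3.47 in 4OHT+Fer1 (adjusted p = 0.000147, edgeR). Unlike Nlrp3 it was also called between both supernatants of 4OHT-treated MEFs, at 1.44 in 4OHT over 4OHT+Fer1 (adjusted p = 0.0247, edgeR). Ctla2b and Plau, also among the nearest, were called in neither comparison with ctrl, with Ctla2b at -0.32 in 4OHT (adjusted p = 0.832) and -0.83 in 4OHT+Fer1 (adjusted p = 0.948) and Plau at -0.94 (adjusted p = 0.678) and -2.31 (adjusted p = 0.948, edgeR). Ctla2b changed sign in 4OHT without replicate 3. The likeness measure uses the same samples as the values above and is a description.

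A total of 6 annotated genes on the opposite strand overlap members in GENCODE M21, and the sources used here do not say whether counting used strand. In the table, Il1bos over Il1b had no count, Gm14023 over Il1a 23, Bco2 over Il18 243, Tex12 over Il18 none, Gm45205 over Pycard none and Cadm3 over Aim2 11 counts over all 14 samples, beside 2672 for Il18 and 12636 for Aim2. Il18 and Bco2 overlap only at chr9:50554827-50555181, the 5′ end of both genes, while QuantSeq reads the 3′ end. Only reads from that stretch cannot be told apart with certainty, and their number was not determined.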

How the data were processed

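RNA of pBMDMs in 5 groups (14 samples) was sequenced with QuantSeq. Per the labels and the study's methods, the authors aligned reads with STAR 2.7.10a, quantified genes with Salmon 1.5.2 in an nf-core pipeline. The values the authors deposited are estimated counts for each gene, not normalized. The submitters' processing notes name GRCh38 and GRCm38, and the identifiers are those of mouse genes, so locations are from GENCODE M21 on GRCm38. A deposited table of the authors' comparisons (fold changes, p-values and normalized values) was not used. The table held no per-sample column of other samples.

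Expected counts were rounded to whole numbers (30109 values were not whole), although the plan spoke of counts. Genes were filtered with filterByExpr (minimum count 10), TMM factors were applied, and edgeR 4.0.16 (R 4.3.3) fitted 1 quasi-likelihood model of group and replicate number over all 14 samples, with Benjamini-Hochberg adjustment. Total counts per sample had a median of 9490457.5, and intervals and floors cover counting error or the spread between samples only. The block follows the study's methods, which have the mouse in the design, and the number in the titles was assumed to be the mouse. For deviations from the group means, the median r across genes was 0.25 over 26 pairs of same-numbered samples (0.0022 to 0.65) and -0.14 over 52 pairs of other numbers. The chi-square per degree of freedom between replicates was 11.7 to 86.8 over 13 pairs, above sampling noise. Within-replicate differences used a prior count of 2. The tests were checked on simulated data.

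The members and gene lists were chosen with earlier results of these data known. Members are all described. Listed genes are named where their adjusted p was under 0.05, with up to 3 others a list for their role, and the 5 nearest genes of Il1b and Nlrp3 by likeness, predicted genes left out. Genes named for an unadjusted p or a DESeq2 call alone, and Cd74, H2-Ab1, Marco, Adam19, Spic, Vegfa, Ctla2b and Plau for their fold changes, were picked after their values were seen. Alternatives were DESeq2 1.42.0, its size factors (RLE), library totals without TMM for levels, no filter, no block, only the groups compared, the adjusted p alone, and each replicate number left out.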

Additional observations from a re-analysis of the deposited data

How the results depend on the processing

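The number of members called moved with the replicate block and with single replicate numbers. Without the replicate block 0 members were called in 4OHT against ctrl, against 4OHT+Fer1 and against the mean of the non-ferroptotic groups, in 4OHT+Fer1 against ctrl and against Fer1, and in medium against ctrl, and the block ended no other member's call. With only the groups compared in the model, 0 members were called in 4OHT against ctrl and in 4OHT+Fer1 against ctrl or Fer1. By adjusted p alone 3 members passed in medium against ctrl, 3 in 4OHT against medium and 5 in medium against the mean. In the interaction, DESeq2 and a fit with no filter each called 1 member, Il1b. Leaving out each replicate number gave 0 to 1 members in 4OHT against ctrl, 4OHT+Fer1, medium and the mean, in medium against ctrl and in the interaction, 0 in both comparisons of 4OHT+Fer1 and in Fer1 against ctrl, and 1 to 2 in medium against the mean. Where medium kept 1 sample, that sample was assumed to vary like the other groups.

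Over all genes, the calls in 4OHT against ctrl numbered 143, and 282 with DESeq2, 259 with no filter, 6 without the block, 0 with only the groups compared and 0 to 191 with a replicate number left out. For 4OHT against 4OHT+Fer1 they numbered 132, and 229, 230, 18, 37 and 0 to 217 in the same order. For 4OHT+Fer1 against ctrl they numbered 4, and 17, 9, 1, 0 and 0 to 3, and against Fer1 3, and 13, 9, 1, 0 and 0 to 2. For the interaction they numbered 4, and 74, 32, 0, 2 and 0 to 26. In medium against ctrl the count was 1001, and 457 without the block and 87 to 1056 with a replicate number left out. In 4OHT against medium it was 394, and 97 without the block, 667 with only the groups compared and 0 to 492 with a number left out. Against the mean, the 219 calls of 4OHT became 84 without the block, 379 by adjusted p alone and 2 to 314 with a number left out, and the 1142 of medium became 689, 1886 and 246 to 1272. The cause of these shifts was not tested.

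Differences that changed sign were all of genes not called. With a replicate number left out, the log2 differences in 4OHT against ctrl ranged from -0.12 to 0.045 for Pycard, -0.089 to 0.50 for Il1rn, -0.12 to 0.078 for Casp1 and -0.32 to 0.32 for Casp4, for Tnf from -0.36 to 1.10 and for Ctla2b from -0.75 to 0.26. In 4OHT+Fer1 against ctrl they ranged from -0.16 to 0.11 for Il18, -0.20 to 0.15 for Casp1, -0.0066 to 0.16 for Il1b and -0.61 to 0.17 for Casp4. In Fer1 against ctrl the ranges were -0.23 to 0.12 for Il18, -0.11 to 0.19 for Casp1 and -0.13 to 0.22 for Nlrp3, and Nlrp3 was at 0.035 without the block and with only the groups compared. Casp4 ranged from -0.094 to 0.27 in 4OHT against the mean. Of 50 group mean levels, 1 moved by more than 1 SD without TMM, Pycard in medium (76.6 CPM in place of 82.0).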
